A study of Homo sapiens with 9 samples.

Results

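The genes described here build and run the DNA replication machinery. They are 43 genes chosen by name from the 58735 genes of the deposited tables, and each name had 1 row. They fall into 8 roles: origin recognition and licensing, the replicative helicase, the sliding clamp and its loader, the polymerases and primase, single-stranded DNA binding, Okazaki fragment maturation, nucleotide supply, and chromatin with the fork checkpoint. RNA sequencing was done on PaTu 8988t cells, an established human pancreatic tumour line, after they had met 1 of 3 extracellular matrices. The 3 groups, with 3 libraries each, were cells on a matrix labelled CPXM2WT OE ECM (wild type), cells on a matrix labelled CPXM2R213A OE ECM (R213A, a point mutant of CPXM2), and cells on a matrix labelled Ctrl ECM (control). CPXM2 is a secreted protein of the carboxypeptidase family, and the series title concerns collagen aligned by it. All cells shared the line and a DMEM medium with serum and antibiotics. The labels give neither the cells that made the matrices nor the time on them, nor do they say that libraries of a group came from separate cultures. The p-values therefore speak only of how these libraries vary, and that variation may be technical.

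DNA replication starts at origins, where the origin recognition complex, CDC6 and CDT1 load the MCM2 to MCM7 ring onto DNA in G1. At the start of S phase CDC45 and the GINS complex join the ring and turn it into the running helicase, polymerase alpha and primase lay down primers, and polymerases epsilon and delta copy the strands while held by the PCNA clamp. Most of these genes are transcribed in a wave at the G1/S boundary under E2F factors, so in a growing tumour line their summed mRNA is widely used as a readout of the cycling share of cells. In bulk RNA, fewer cells in S phase and less mRNA per cell cannot be told apart.

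The region upstream of the start of transcription is shown first for 6 of the genes, because E2F binding at these promoters is the textbook link between them. Sequences come from RefSeq, build GRCh38.p14, and run from 250 bases before the start to 20 after it. A promoter entry was found for 37 of the 43 genes, and MCM4, MCM5, GINS4, POLD3, RPA2 and RPA3 had none. Only the first entry listed for a gene was used, and 10 further entries of these 37 genes were not counted. Capitals mark a match to either of 2 E2F words, TTTCCCGC or TTTGGCGC, on either strand, so that GCGGGAAA and GCGCCAAA are the same words read on the other strand. UHRF1 (chr19:4909251-4909520 on the plus strand) had the largest fall of wild type 1 against control 1. PCNA (chr20:5126603-5126872 on the minus strand) had the highest median level of the 43 over the 9 libraries. MCM6 (chr2:135876424-135876693 on the minus strand) has a pair of matches. POLE2 (chr14:49688195-49688464 on the minus strand) passed against control 1, against R213A and between the tables. RRM2 (chr2:10122489-10122758 on the plus strand) had the largest fall against control 1 among genes without a match. POLD2 (chr7:44123529-44123798 on the minus strand) was the gene that was not lower in wild type 1 than in control 1. A RefSeq start can lie inside the gene span that the deposited tables give.
UHRF1: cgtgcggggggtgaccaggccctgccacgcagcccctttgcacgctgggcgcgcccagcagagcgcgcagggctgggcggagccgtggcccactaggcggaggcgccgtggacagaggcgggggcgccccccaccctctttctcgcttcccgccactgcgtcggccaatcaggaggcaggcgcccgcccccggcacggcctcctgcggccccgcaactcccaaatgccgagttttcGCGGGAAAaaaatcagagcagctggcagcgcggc
PCNA: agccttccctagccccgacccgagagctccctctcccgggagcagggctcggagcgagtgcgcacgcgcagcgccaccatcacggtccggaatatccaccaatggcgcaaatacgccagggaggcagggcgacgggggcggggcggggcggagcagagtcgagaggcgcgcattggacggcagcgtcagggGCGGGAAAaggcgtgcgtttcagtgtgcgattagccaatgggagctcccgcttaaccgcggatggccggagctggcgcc
MCM6: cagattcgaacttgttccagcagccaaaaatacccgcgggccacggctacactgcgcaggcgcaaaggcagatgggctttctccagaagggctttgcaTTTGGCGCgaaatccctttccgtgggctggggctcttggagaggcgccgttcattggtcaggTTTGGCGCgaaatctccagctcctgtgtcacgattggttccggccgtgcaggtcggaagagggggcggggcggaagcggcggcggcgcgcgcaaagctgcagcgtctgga
POLE2: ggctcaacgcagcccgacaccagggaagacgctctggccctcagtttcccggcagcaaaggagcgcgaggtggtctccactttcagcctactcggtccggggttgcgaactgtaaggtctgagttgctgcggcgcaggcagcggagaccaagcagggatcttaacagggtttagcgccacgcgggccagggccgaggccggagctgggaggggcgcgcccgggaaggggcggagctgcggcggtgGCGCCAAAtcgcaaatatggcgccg
RRM2: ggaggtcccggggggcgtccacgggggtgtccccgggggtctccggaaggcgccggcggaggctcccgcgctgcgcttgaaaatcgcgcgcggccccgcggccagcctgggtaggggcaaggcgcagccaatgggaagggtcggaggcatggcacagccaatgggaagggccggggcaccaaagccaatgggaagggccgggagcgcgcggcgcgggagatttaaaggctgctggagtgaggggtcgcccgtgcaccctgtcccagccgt
POLD2: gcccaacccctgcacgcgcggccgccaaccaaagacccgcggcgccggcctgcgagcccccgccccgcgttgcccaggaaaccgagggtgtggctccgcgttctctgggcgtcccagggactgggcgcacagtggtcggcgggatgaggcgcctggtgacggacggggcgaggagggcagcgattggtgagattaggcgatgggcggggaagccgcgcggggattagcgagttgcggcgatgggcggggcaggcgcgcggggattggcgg
Over the whole window of 300 bases, which ends 50 bases after the start, 17 of the 37 promoters (45.9%) held an E2F word, against 4.15% of the promoters of fitted genes (341 of 8217) and 2.27% of all promoters in the table (797 of 35116). The match began 14 bases before the start in UHRF1, 59 bases before it in PCNA, 5 bases before it in POLE2, and 152 and 90 bases before it in MCM6. The word CCAAT, searched on both strands, was in 23 of the 37 (62.2%), against 37.3% of the promoters of fitted genes and 34.6% of all promoters, and TTTGAA, a core of the element found at many G2/M genes, was in 1 of the 37 (2.70%), against 9.02% of the promoters of fitted genes and 15.2% of all promoters. None of these words contains another. No match says only that these letters are not in this window.

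The deposited values are FPKM, reads scaled to gene length and library size, in 2 separate tables. The 4-library table holds wild type 1, R213A 1, R213A 3 and control 1, and the 5-library table holds wild type 2 and 3, R213A 2, and control 2 and 3. Groups were compared within tables, and levels in the 2 tables stand side by side without a test. The libraries held 15951927 to 18312806 reads, and mitochondrial genes took 1.81% to 2.38% of them. The lowest count of any of the 43 genes in any library was 90 reads. The keratin genes KRT8 and KRT18 ranged from 104 to 300.3 FPKM and from 211 to 647 FPKM. The epithelial genes CDH1, KRT19 and KRT7 stayed at or under 0.468 FPKM in every library, and EPCAM ranged from 1.84 to 6.57 FPKM. Of the mesenchymal genes VIM had a median of 112 FPKM, CDH2 of 13.5, ZEB1 of 4.41 and FN1 of 0.957. The 11 fibroblast markers together summed to 0.794 to 1.75 FPKM, and none of them, of 3 immune or of 3 endothelial markers had a mean of 1 FPKM. In the 5-library table, read counts of wild type 2, wild type 3, R213A 2 and control 3 differed pairwise by a chi-square of 2.56 to 5.07 per gene, where 1 is sampling noise alone. The 4 pairs with control 2 gave values of 59.99 to 66.2. Wild type 1 was below every other library of its table for 41 of the 43 genes (28.6% of all genes fitted). For control 2 this held for 29 of the 43 (37.1%). Results are therefore given with and without these libraries. Control 1 was above every other library of its table for 25 of the 43 (39.0% of all genes fitted). Over all genes fitted, wild type 1 was above every other library of its table for 23.3%, and R213A 1 for 33.0%.

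In the 4-library table the replication genes were lower in wild type 1 than in control 1 across all 8 roles. The 43 genes summed to 564 FPKM in wild type 1, 1792 and 1396 in R213A 1 and 3, and 1512 in control 1. In limma's test, 23 of the 43 fell at an adjusted p under 0.05 and none rose, while of all 11193 genes fitted 4.2% passed as lower and 3.3% as higher. The median log2 difference of the 43 was -1.39, and over all genes it was -0.07. At least 2-fold lower were 31 of the 43, against 8.84% of all genes, and 42 of the 43 lay below 0, against 54.0% of all genes. The exception was POLD2 at 0.02.

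The same comparison in the 5-library table gave no such fall. The 43 genes summed to 790 and 806 FPKM in wild type 2 and 3, 774 in R213A 2, and 651 and 788 in control 2 and 3. In limma's test none of the 43 passed there, and none of the 11193 genes did (0.0%), with 82 genes (0.733%) and none of the 43 at an unadjusted p under 0.05. The median difference of the 43 was 0.12, and over all genes it was -0.01. Without control 2 the median was 0.01. A test of the difference between the tables passed for 6 of the 43, all lower in the 4-library table, against 0.679% of all genes in that direction. The median of the 43 for this difference was -1.52. Without control 2 in the fit none of the 43 and none of the 11193 genes passed, while the median was -1.40. Without wild type 2 or wild type 3, 1 of the 43 passed in each case, against 0.205% and 0.313% of all genes, with medians of -1.46 and -1.49. Wild type and control have 1 library each in the 4-library table, so the error there rests on the spread of R213A 1 against 3 and of pairs in the 5-library table, and the lone libraries are assumed to vary like those pairs.

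**Figure D1:**
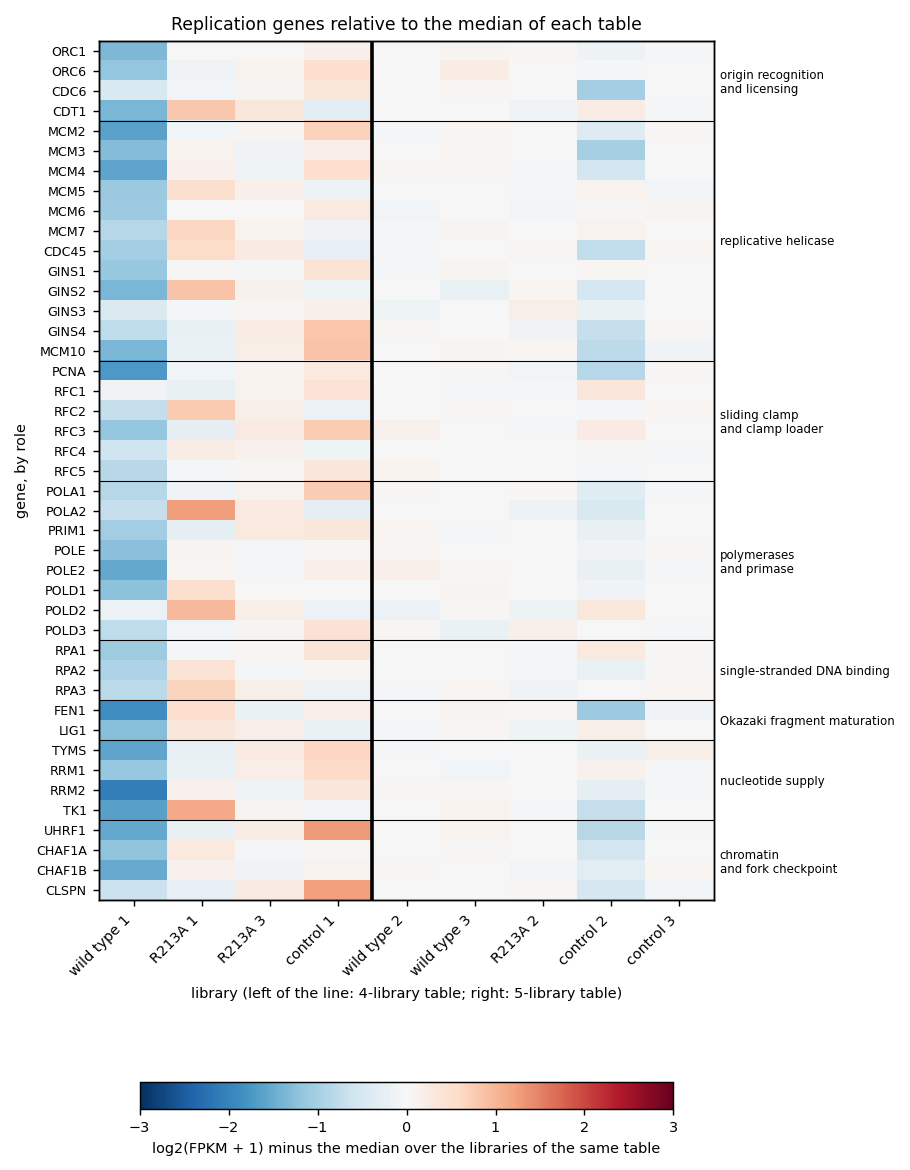
Each row is 1 of the 43 genes, grouped by role, and each column a library, with the 4-library table left of the black line and the 5-library table right of it. Colour gives log2(FPKM + 1) minus the median of that gene over the libraries of the same table. Wild type 1 is blue for nearly every gene, being below each of the 3 other libraries for 41 of 43 (28.6% of all genes), and control 2 is blue for a part of them.

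Origin recognition and licensing genes come first in the order of replication. CDT1, which brings the MCM ring to the origin, and ORC1, the largest subunit of the origin recognition complex, were lower in wild type 1 than in both R213A libraries and in control 1, as was ORC6, the smallest subunit of that complex. Of the 4 licensing genes ORC1 and ORC6 passed as lower than control 1, against 4.2% of all genes. CDT1 did not pass, at -1.04 (SE 0.33, adjusted p = 0.0880). ORC1 (chr1:52372829-52404459, minus strand, build hg38) had 2.97 FPKM in wild type 1, 9.25 and 9.01 in R213A 1 and 3, and 10.2 in control 1. The 5-library table gave 8.70 and 9.19 FPKM in wild type 2 and 3, 9.12 in R213A 2, and 7.74 and 8.49 in control 2 and 3. Wild type 1 was low alone, the other 3 libraries of its table lay close together, and both controls of the 5-library table were slightly below its other 3 libraries. The difference of wild type 1 from control 1 was -1.50 (SE 0.24, adjusted p = 0.0194) on the log2(FPKM + 1) scale, which holds for all differences here. ORC6 differed by -1.66 (SE 0.26, adjusted p = 0.0188), with 3.79 FPKM in wild type 1, 8.96 and 10.5 in R213A 1 and 3, and 14.1 in control 1, and it had 12.7 and 14.9 FPKM in wild type 2 and 3, 12.5 in R213A 2, and 12.0 and 12.6 in control 2 and 3. Here too only wild type 1 was far from the rest. CDC6, the loading ATPase that is destroyed and rebuilt each cycle, had 7.74 FPKM in wild type 1, 10.4 and 11.8 in R213A 1 and 3, and 14.5 in control 1, and it had 13.8 and 14.3 FPKM in wild type 2 and 3, 13.6 in R213A 2, and 6.17 and 13.5 in control 2 and 3. Control 2 was the lowest library of the 9 for CDC6, and the difference of wild type 1 from control 1, -0.83 (SE 0.44, adjusted p = 0.261), did not pass.

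CDT1 behaved differently from its partner CDC6 in the R213A libraries. It had 19.9 FPKM in wild type 1, 94.0 and 67.1 in R213A 1 and 3, and 41.9 in control 1. In the other table it had 23.3 and 23.5 FPKM in wild type 2 and 3, 21.6 in R213A 2, and 27.5 and 22.4 in control 2 and 3. R213A 1 and 3 were the highest of all 9 libraries and wild type 1 the lowest, while wild type 2 and 3 lay between control 2 and 3. CDT1 levels per kilobase over those of CDC6 were 2.57 in wild type 1, 9.08 and 5.69 in R213A 1 and 3, and 2.88 in control 1. The ratio in the 5-library table was 1.69 and 1.65 in wild type 2 and 3, 1.59 in R213A 2, and 4.46 and 1.66 in control 2 and 3, with control 2 apart from the other 4. Between wild type 1 and the R213A libraries CDT1 differed by -1.95 (SE 0.28, adjusted p = 0.0357), which passed, and between R213A and control 1 by 0.91 (SE 0.28, adjusted p = 0.135), which did not.

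Of the 12 helicase genes, 5 fell in wild type 1 against control 1, against 4.2% of all genes. All 12 lay below 0, against 54.0% of all genes. MCM2 and MCM4, subunits of the ring, MCM6, a further subunit, MCM10, which helps the loaded ring start to unwind, and GINS1, a subunit of the GINS complex, passed the test. MCM2 (chr3:127598223-127622436, plus strand) had 9.87 FPKM in wild type 1, 30.6 and 34.0 in R213A 1 and 3, and 52.6 in control 1. Its levels in the 5-library table were 25.2 and 27.4 FPKM in wild type 2 and 3, 26.2 in R213A 2, and 19.8 and 26.7 in control 2 and 3. Wild type 1 was the lowest and control 1 the highest of the 9, and in the 5-library table control 2 was lower than the other 4. The difference of wild type 1 from control 1 was -2.30 (SE 0.30, adjusted p = 0.0138), and within the 5-library table wild type differed from control by 0.18 (95% interval -0.31 to 0.68). MCM10 had 2.19 FPKM in wild type 1, 6.16 and 8.47 in R213A 1 and 3, and 13.8 in control 1, and 8.02 and 8.49 FPKM in wild type 2 and 3, 8.36 in R213A 2, and 4.22 and 7.41 in control 2 and 3. Its difference was -2.22 (SE 0.37, adjusted p = 0.0212), and in the 5-library table control 2 was the low library. For MCM4 the difference was -2.08 (SE 0.34, adjusted p = 0.0206), for MCM6 -1.37 (SE 0.25, adjusted p = 0.0237), and for GINS1 -1.55 (SE 0.24, adjusted p = 0.0188).

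The subunits of the MCM ring stand in equal number in the complex, but their mRNA levels did not move in step between libraries. MCM7 had the highest FPKM of the 6 ring subunits in every library, and the lowest was MCM6 in R213A 1, R213A 3 and control 1, MCM2 in wild type 1, and MCM5 in all 5 libraries of the other table. MCM7 over MCM2 was 6.23 in wild type 1, 5.72 and 3.54 in R213A 1 and 3, and 2.00 in control 1. The 5-library table gave ratios of 1.73 and 1.75 in wild type 2 and 3, 1.71 in R213A 2, and 2.44 and 1.66 in control 2 and 3. MCM6 had 11.0 FPKM in wild type 1, 24.6 and 24.9 in R213A 1 and 3, and 30.0 in control 1, and 13.5 and 14.3 FPKM in wild type 2 and 3, 13.5 in R213A 2, and 14.7 and 15.1 in control 2 and 3, so wild type 1 was the lowest of the 9. MCM5, another ring subunit, had 16.8 FPKM in wild type 1, 53.3 and 41.8 in R213A 1 and 3, and 34.2 in control 1, and 7.88 and 7.97 FPKM in wild type 2 and 3, 7.73 in R213A 2, and 8.53 and 7.38 in control 2 and 3. Wild type 1 was the lowest of its table, R213A 1 the highest, and the 5 other libraries lay together. The difference of wild type 1 from control 1 was -0.98 (SE 0.28, adjusted p = 0.0726) and did not pass.

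CDC45 and GINS2, the partners that turn the ring into an active helicase, were highest in the R213A libraries of the 4-library table. CDC45 had 9.01 FPKM in wild type 1, 28.8 and 23.0 in R213A 1 and 3, and 16.2 in control 1, and 7.44 and 7.85 FPKM in wild type 2 and 3, 8.20 in R213A 2, and 4.34 and 8.28 in control 2 and 3. GINS2 had 8.24 FPKM in wild type 1, 42.4 and 24.9 in R213A 1 and 3, and 20.9 in control 1, and 5.70 and 4.77 FPKM in wild type 2 and 3, 5.89 in R213A 2, and 3.62 and 5.61 in control 2 and 3. For both genes R213A 1 was the highest library of the 9 and control 2 the lowest, with wild type 1 the lowest of its own table. Wild type 1 differed from the R213A libraries by -1.42 (SE 0.34, adjusted p = 0.106) for CDC45 and by -1.86 (SE 0.36, adjusted p = 0.0661) for GINS2, and neither passed. The remaining helicase genes MCM3, MCM7, GINS3 and GINS4 had differences of wild type 1 from control 1 between -1.58 (GINS4) and -0.58 (GINS3), and none of the 4 passed.

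**Figure D2:**
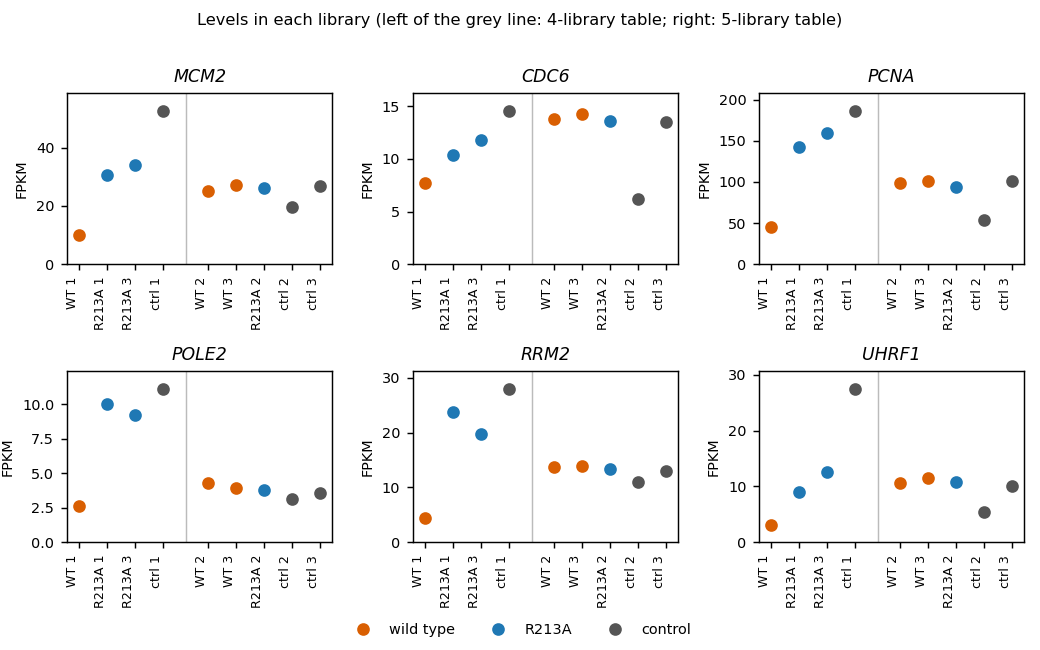
Levels in FPKM of 6 genes from different roles in each of the 9 libraries, 1 point a library, with the 4-library table left of the grey line and the 5-library table right of it. Wild type 1 is the lowest point of its table in all 6 panels, and control 2 is the lowest of its own.

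PCNA, the sliding clamp that tethers polymerases to DNA, fell in wild type 1 against control 1. So did 2 of the 5 subunits of its loader RFC, against 4.2% of all genes. PCNA (chr20:5114953-5126626, minus strand) had 45.3 FPKM in wild type 1, 143 and 160.0 in R213A 1 and 3, and 186 in control 1. Its levels in the 5-library table were 98.9 and 101 FPKM in wild type 2 and 3, 93.4 in R213A 2, and 54.2 and 101 in control 2 and 3. Wild type 1 and control 2 were both far below the other libraries of their tables. The difference of wild type 1 from control 1 was -2.02 (SE 0.43, adjusted p = 0.0362), and that within the 5-library table was 0.43 (95% interval -0.28 to 1.14). RFC3, a small loader subunit, had 7.07 FPKM in wild type 1, 14.0 and 20.5 in R213A 1 and 3, and 29.2 in control 1, and 22.5 and 20.4 FPKM in wild type 2 and 3, 20.0 in R213A 2, and 24.2 and 20.4 in control 2 and 3. Its difference was -1.90 (SE 0.32, adjusted p = 0.0215), with control 2 the highest of its table, unlike for PCNA. RFC5 differed by -1.19 (SE 0.25, adjusted p = 0.0339). RFC1, RFC2 and RFC4 had differences between -0.54 (RFC2) and -0.48 (RFC4) and did not pass, and RFC1 was the gene besides POLD2 for which wild type 1 was not the lowest of its table, since R213A 1 had 8.35 FPKM against 8.98 in wild type 1.

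Among the 8 polymerase and primase genes 5 fell, against 4.2% of all genes. POLE2, an accessory subunit of polymerase epsilon, had 2.66 FPKM in wild type 1, 10.0 and 9.20 in R213A 1 and 3, and 11.1 in control 1. The 5-library table gave 4.33 and 3.92 FPKM in wild type 2 and 3, 3.78 in R213A 2, and 3.11 and 3.55 in control 2 and 3. The low library was wild type 1, with the other 3 of its table within a narrow range. The difference from control 1 was -1.72 (SE 0.25, adjusted p = 0.0150), and that from the R213A libraries was -1.53 (SE 0.21, adjusted p = 0.0330). POLA1, the catalytic subunit of polymerase alpha, had 3.66 FPKM in wild type 1, 6.86 and 7.998 in R213A 1 and 3, and 13.2 in control 1, and 7.25 and 7.01 FPKM in wild type 2 and 3, 7.20 in R213A 2, and 5.27 and 6.76 in control 2 and 3. PRIM1, the catalytic primase subunit bound to it, had 3.42 FPKM in wild type 1, 6.41 and 10.2 in R213A 1 and 3, and 10.6 in control 1, and 6.91 and 6.35 FPKM in wild type 2 and 3, 6.55 in R213A 2, and 5.45 and 6.60 in control 2 and 3. Both were lowest in wild type 1 and highest in control 1, and they differed between these libraries by -1.61 (SE 0.27, adjusted p = 0.0208) for POLA1 and -1.39 (SE 0.33, adjusted p = 0.0471) for PRIM1. POLE, the catalytic subunit of polymerase epsilon, and POLD3, an accessory subunit of polymerase delta, differed by -1.30 (SE 0.25, adjusted p = 0.0271) and -1.18 (SE 0.26, adjusted p = 0.0373).

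The 3 other polymerase genes did not pass. POLA2, the accessory subunit of polymerase alpha, had 3.11 FPKM in wild type 1, 14.7 and 6.94 in R213A 1 and 3, and 4.45 in control 1, and 2.49 and 2.51 FPKM in wild type 2 and 3, 2.16 in R213A 2, and 1.53 and 2.51 in control 2 and 3. R213A 1 stood highest, the gap between the 2 R213A libraries was wide, and wild type 1 and control 1 were close, at a difference of -0.41 (SE 0.46, adjusted p = 0.593). POLD2, an accessory subunit of polymerase delta, had 58.0 FPKM in wild type 1, 129 and 73.9 in R213A 1 and 3, and 57.4 in control 1, and 16.0 and 18.5 FPKM in wild type 2 and 3, 16.1 in R213A 2, and 22.8 and 18.1 in control 2 and 3. Wild type 1 and control 1 were level for it, R213A 1 was the highest, and control 2 was the highest of its table. POLD1, the catalytic subunit of polymerase delta, differed by -1.25 (SE 0.31, adjusted p = 0.0528), and the level of POLD2 over that of POLD1 was 4.83 in wild type 1, 3.04 and 2.51 in R213A 1 and 3, and 1.92 in control 1.

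RPA, the trimer that coats single-stranded DNA at the fork, and the pair of Okazaki fragment enzymes were all lowest in wild type 1 within the 4-library table. RPA1, the large subunit, had 10.2 FPKM in wild type 1, 21.5 and 23.6 in R213A 1 and 3, and 29.7 in control 1, and 21.6 and 21.4 FPKM in wild type 2 and 3, 20.7 in R213A 2, and 26.8 and 22.3 in control 2 and 3. Its difference of wild type 1 from control 1 was -1.45 (SE 0.27, adjusted p = 0.0251), while control 2 was the highest of its table. RPA2, the middle subunit, had 17.5 FPKM in wild type 1, 45.9 and 32.8 in R213A 1 and 3, and 35.4 in control 1, and 29.5 and 29.4 FPKM in wild type 2 and 3, 28.4 in R213A 2, and 25.3 and 30.4 in control 2 and 3, with a difference of -0.98 (SE 0.32, adjusted p = 0.0976) that did not pass. RPA3, the small subunit, had 10.9 FPKM in wild type 1, 32.2 and 22.7 in R213A 1 and 3, and 17.5 in control 1, and 10.1 and 10.7 FPKM in wild type 2 and 3, 9.63 in R213A 2, and 10.3 and 10.8 in control 2 and 3. Wild type 1 was the lowest of its table for all 3 subunits, and R213A 1 was the highest for RPA2 and RPA3.

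FEN1, the nuclease that trims the flap of each Okazaki fragment, had 23.1 FPKM in wild type 1, 123 and 75.9 in R213A 1 and 3, and 99.0 in control 1. The 5-library table gave 40.0 and 42.4 FPKM in wild type 2 and 3, 41.3 in R213A 2, and 18.2 and 37.2 in control 2 and 3. Wild type 1 and control 2 were each the low library of their tables, wild type 1 by the larger factor. The difference of wild type 1 from control 1, -2.05 (SE 0.51, adjusted p = 0.0528), was among the largest yet did not pass. LIG1, the ligase that seals the trimmed fragments, had 4.20 FPKM in wild type 1, 14.8 and 13.3 in R213A 1 and 3, and 9.93 in control 1, and 3.93 and 4.34 FPKM in wild type 2 and 3, 3.71 in R213A 2, and 4.81 and 4.14 in control 2 and 3. It passed at -1.07 (SE 0.25, adjusted p = 0.0454) against control 1 and at -1.53 (SE 0.22, adjusted p = 0.0340) against the R213A libraries, and wild type 1 was the lowest of its table while the groups of the 5-library table lay together.

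Nucleotide supply held some of the largest differences, and 3 of its 4 genes fell, against 4.2% of all genes. RRM2, the small subunit of ribonucleotide reductase and the one made in S phase, had 4.35 FPKM in wild type 1, 23.8 and 19.7 in R213A 1 and 3, and 27.9 in control 1. Its levels in the 5-library table were 13.7 and 13.9 FPKM in wild type 2 and 3, 13.4 in R213A 2, and 10.9 and 13.0 in control 2 and 3. Wild type 1 was low by a wide gap, and in the 5-library table control 2 was the lowest, with the other 4 close together. The difference from control 1 was -2.43 (SE 0.27, adjusted p = 0.0110), and that from the R213A libraries was -2.08 (SE 0.24, adjusted p = 0.0330). Within the 5-library table wild type differed from control by 0.19 (95% interval -0.26 to 0.64). RRM1, the large subunit, differed by -1.71 (SE 0.31, adjusted p = 0.0235), and its level over that of RRM2 was 4.12 in wild type 1, 1.49 and 2.38 in R213A 1 and 3, and 2.19 in control 1.

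TYMS, which makes thymidylate, had 8.65 FPKM in wild type 1, 23.3 and 32.8 in R213A 1 and 3, and 43.1 in control 1, and 17.7 and 18.0 FPKM in wild type 2 and 3, 18.1 in R213A 2, and 15.6 and 20.3 in control 2 and 3. It was highest in control 1 and lowest in wild type 1, at a difference of -2.19 (SE 0.33, adjusted p = 0.0166). TK1, the thymidine kinase of S phase cells, had 40.5 FPKM in wild type 1, 281 and 134 in R213A 1 and 3, and 121 in control 1, and 51.6 and 54.7 FPKM in wild type 2 and 3, 48.7 in R213A 2, and 30.9 and 50.9 in control 2 and 3. R213A 1 was more than 2-fold above R213A 3, control 2 was the lowest of all 9, and the difference of wild type 1 from control 1, -1.56 (SE 0.54, adjusted p = 0.110), did not pass. Against the R213A libraries the difference of TK1 was the largest of the 43, -2.23 (SE 0.46, adjusted p = 0.0774), and it did not pass either.

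Of the chromatin and checkpoint genes 3 of 4 fell, against 4.2% of all genes. UHRF1 had the largest difference of wild type 1 from control 1 among all 43. UHRF1, which binds hemimethylated DNA behind the fork and brings in DNMT1, lies at chr19:4903080-4962154, plus strand. It had 3.04 FPKM in wild type 1, 8.98 and 12.6 in R213A 1 and 3, and 27.4 in control 1. Its levels in the 5-library table were 10.6 and 11.4 FPKM in wild type 2 and 3, 10.8 in R213A 2, and 5.49 and 10.2 in control 2 and 3. Control 1 stood far above every other library, wild type 1 was the lowest, and the R213A libraries of its table lay between. Wild type 1 differed from control 1 by -2.81 (SE 0.40, adjusted p = 0.0150), and within the 5-library table wild type differed from control by 0.50 (95% interval -0.17 to 1.16).

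CLSPN encodes claspin, the fork adaptor of the ATR checkpoint. It had 0.860 FPKM in wild type 1, 1.46 and 2.44 in R213A 1 and 3, and 5.84 in control 1, and 4.85 and 4.94 FPKM in wild type 2 and 3, 5.14 in R213A 2, and 3.15 and 4.54 in control 2 and 3. Control 1 was again the highest library, and R213A 1 lay nearer to wild type 1 than to control 1. The difference of wild type 1 from control 1 was -1.88 (SE 0.33, adjusted p = 0.0221). CHAF1B, a subunit of the chromatin assembly factor that places histones behind the fork, had 3.78 FPKM in wild type 1, 14.1 and 11.7 in R213A 1 and 3, and 13.8 in control 1, and 5.27 and 5.13 FPKM in wild type 2 and 3, 4.75 in R213A 2, and 3.84 and 5.35 in control 2 and 3. Only wild type 1 was low in its table, at -1.63 (SE 0.29, adjusted p = 0.0221) against control 1 and -1.53 (SE 0.25, adjusted p = 0.0471) against the R213A libraries. CHAF1A, its partner, differed by -1.24 (SE 0.34, adjusted p = 0.0640) from control 1 and did not pass.

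**Figure D3:**
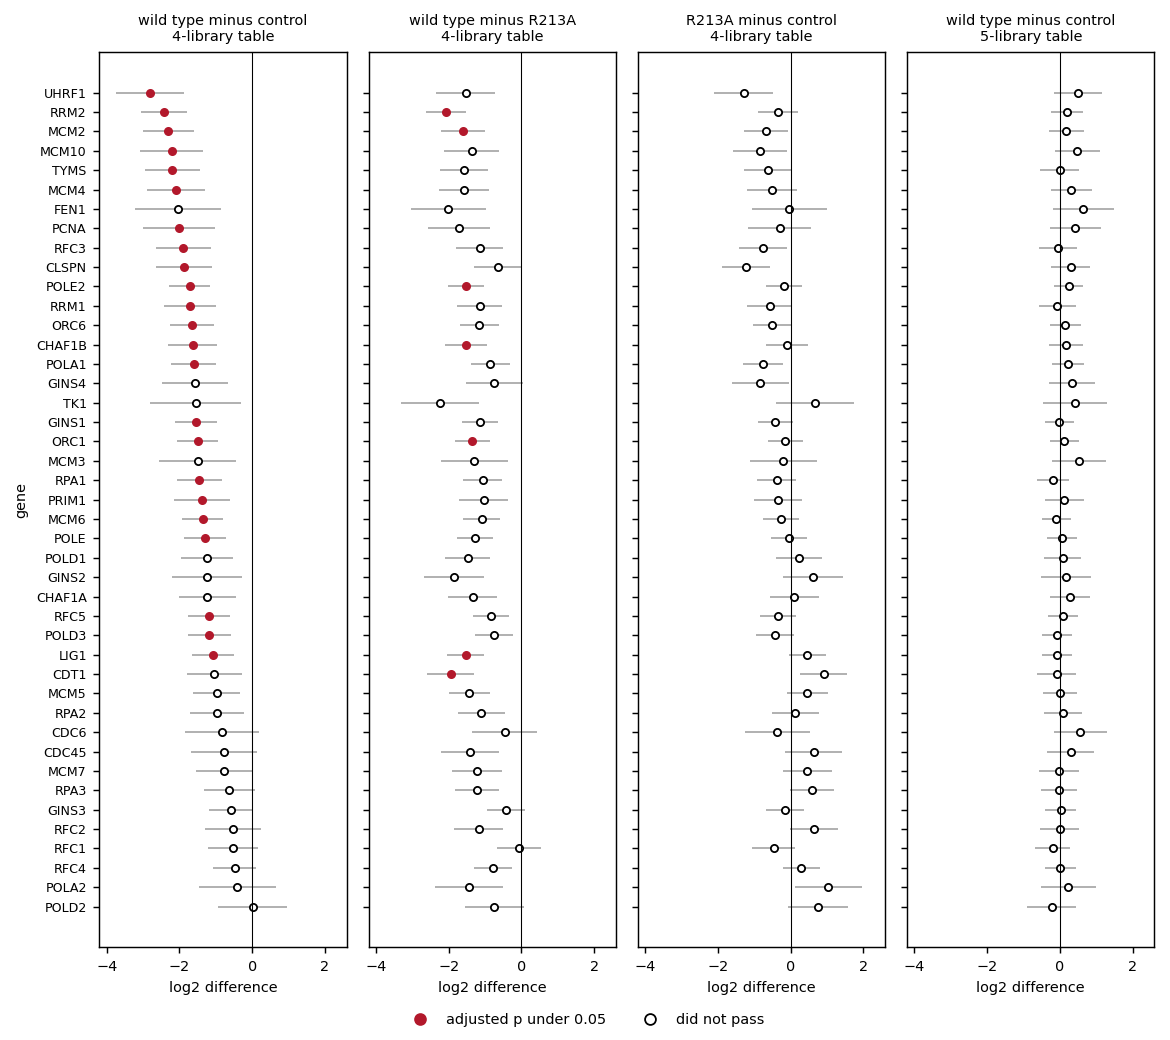
Differences in log2(FPKM + 1) of the 43 genes with their 95% intervals, for 3 comparisons within the 4-library table and for wild type minus control within the 5-library table. Filled red points passed at an adjusted p under 0.05: 23 in the first panel, 7 in the second, and none in the others.

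Over all 9 libraries, with the table as a term, none of the 11193 genes passed in any of the 3 comparisons (0.0%). The comparisons share libraries. Wild type minus control had a median of -0.39 over the 43 genes and -0.03 over all genes, and 41 of the 43 lay below 0, against 53.7% of all genes. The largest fall among them was -0.73 (SE 0.39, adjusted p = 0.757) for TYMS, and at an unadjusted p under 0.05 there was 1 of the 43, RPA1 at -0.60 (SE 0.27, adjusted p = 0.757), against 4.49% of all genes. The median rested on wild type 1 and control 1. It was 0.079 without wild type 1, -0.11 without control 1, and -0.031 without wild type 1 and control 2. Among single genes RRM2 had -0.68 (SE 0.45, adjusted p = 0.757), MCM2 -0.65 (SE 0.42, adjusted p = 0.757) and UHRF1 -0.61 (SE 0.55, adjusted p = 0.770). Without wild type 1, all 3 were above 0, at 0.11, 0.037 and 0.20. The 95% interval of a member in this fit reached 0.71 to either side of its value in the median gene. It is not adjusted for the number of genes, so it is not the limit of detection. Over all genes the differences ran from -1.61 to 2.14 and none passed, so changes well above 0.71 could also go undetected.

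Against the mean of R213A 1 and 3, wild type 1 was lower for all 43 genes in the 4-library table. This held for 52.7% of all genes. Against R213A 1 alone wild type 1 was lower for 42 of the 43 (51.5% of all genes), with RFC1 at 0.095. In limma's test 7 passed, all lower, against 0.518% of all genes that passed as lower: RRM2, CDT1, MCM2, LIG1, POLE2, CHAF1B and ORC1. The median was -1.27, and over all genes -0.03, and 33 of the 43 were at least 2-fold lower, against 4.07% of all genes. The number that passed was 28 of the 43 without R213A 3, against 8.95% of all genes. It was 0 without R213A 1, where none of the 11193 genes passed, and 0 without control 2 or without control 3, where 1 of the 11193 did. The median of the 43 stayed between -1.34 and -1.22 in all of these fits. In pairs of libraries, wild type 1 minus R213A 1 had a median of -1.34 and wild type 1 minus R213A 3 a median of -1.22. Within the 5-library table none of the 43 passed (0.0% of all genes), and the differences ran from -0.25 (POLD3) to 0.15 (POLA2). Over all 9 libraries the median was -0.54, with 4 of the 43 at an unadjusted p under 0.05 (GINS2, CDT1, MCM5 and LIG1) against 1.05% of all genes. Without wild type 1 that median was 0.10.

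R213A against control gave no gene that passed, in either table or over all 9 libraries (0.0%). In the 4-library table the median of the 43 was -0.20, and over all genes -0.04, with 28 of the 43 below 0, against 52.1% of all genes. At an unadjusted p under 0.05, 7 of the 43 were lower and 2 higher, against 27.7% of all genes in either direction. The 2 higher were CDT1 at 0.91 (SE 0.28, adjusted p = 0.135) and POLA2 at 1.04 (SE 0.40, adjusted p = 0.156). The lowest were UHRF1 at -1.29 (SE 0.35, adjusted p = 0.131) and CLSPN at -1.23 (SE 0.29, adjusted p = 0.131). Without R213A 3, so with R213A 1 alone, 12 of the 43 passed, against 28.4% of all genes, a share like that of the 43. The 2 R213A libraries differed from each other by between -0.59 (PRIM1) and 1.06 (TK1) (R213A 1 minus R213A 3). Over all 9 libraries the median was 0.17, and over all genes -0.02. It rested on single libraries: it was -0.036 without control 2, 0.00298 without wild type 1, 0.42 without R213A 2 and 0.50 without control 1.

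Gene length moved with differences between libraries of the 4-library table. Across genes, R213A 1 minus control 1 had a Spearman correlation with gene length of -0.41 over all 11193 genes fitted and -0.23 over the 43, which run from 1471 bases (PCNA) to 16609 (POLE). These points share 2 libraries and are a description. The 22 genes of at most 4299 bases had a median of 0.09 and the 21 longer ones a median of -0.45. For wild type 1 minus control 1 the correlation was -0.27 over all genes fitted and 0.03 over the 43, and the shorter and longer genes had medians of -1.38 and -1.45. The part of gene length in these differences was not tested.

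**Figure D4:**
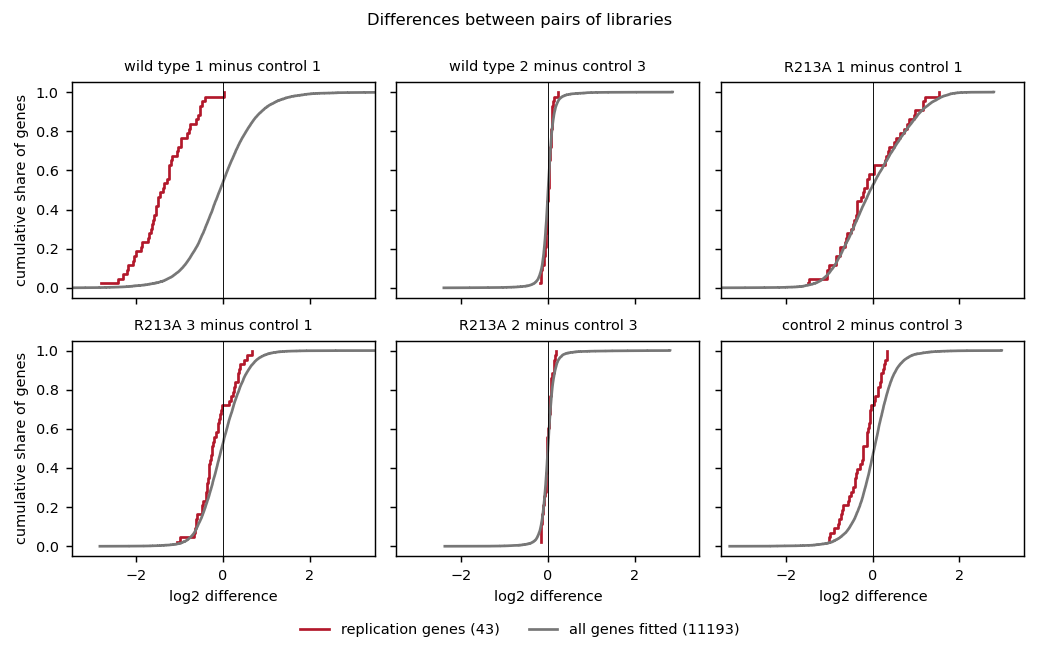
Cumulative share of genes against the log2 difference for 6 pairs of libraries, for the 43 replication genes in red and all 11193 genes fitted in grey. The red curve lies left of the grey one for wild type 1 minus control 1, with medians of -1.39 and -0.07, lies on it for wild type 2 and R213A 2 minus control 3, and lies slightly to its left for control 2 minus control 3, with medians of -0.23 and 0.03.

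In the 5-library table control 2 was the library that differed. Wild type 2, wild type 3, R213A 2 and control 3 were within 1.04-fold (CHAF1A) to 1.36-fold (POLD3) of each other for each of the 43. Control 2 was below all 4 of them for 29 genes and above all 4 for 10, against 37.1% and 43.7% of all genes. At least 1.5-fold below their median were 14 of the 43, against 12.3% of all genes. At least 2-fold below it were 3 of the 43, against 4.81% of all genes. FEN1 had 0.448 of that median, CDC6 0.450, MCM3 0.484, UHRF1 0.515 and PCNA 0.542. In contrast POLD2 had 1.33 of it, RFC1 1.29 and CDT1 1.21. Marker sums moved with control 2 as well. The 6 epithelial markers summed to 728 FPKM in control 2, against 341 to 361 in the other 4 libraries. The 4 mesenchymal markers summed to 227, against 122 to 132. KRT18 (531 FPKM in control 2), KRT8 (192) and VIM (202) made up most of these sums. EPCAM was lower in control 2, at 3.99 FPKM against 4.88 to 6.05. CDH2 had 14.7 FPKM, against 13.5 to 15.0, and ZEB1 had 9.01, against 4.41 to 4.89. The part of these changes in its replication genes was not tested.

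**Figure D5:**
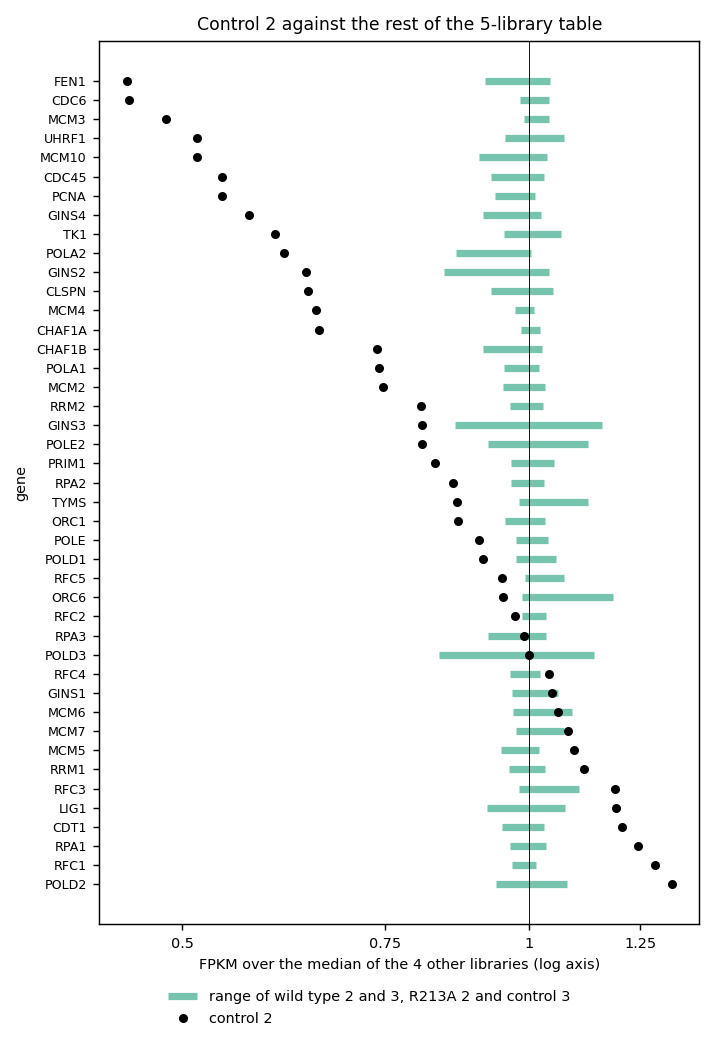
FPKM of each of the 43 genes in control 2 divided by the median of the other 4 libraries of the 5-library table (black points, log axis), with the range of those 4 libraries as green bars. Control 2 lies below the bar for 29 genes (37.1% of all genes fitted) and above it for 10 (43.7%). The ratios run from 0.448 for FEN1 to 1.33 for POLD2.

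Genes that work beside the 43 were counted in lists of their own for wild type 1 minus control 1, against 4.2% of all genes passing as lower. Of 32 other fork and origin genes 8 fell and 1 rose, with DNA2, the flap nuclease and helicase, at -1.93 (SE 0.33, adjusted p = 0.0215). Of 15 other nucleotide supply genes 4 fell. Of 12 S phase chromatin genes 7 fell, among them PCLAF, a partner of PCNA, at -1.88 (SE 0.27, adjusted p = 0.0150), and DNMT1, the maintenance methyltransferase that UHRF1 brings in, at -1.72 (SE 0.27, adjusted p = 0.0188). Of 20 E2F and G1/S regulators 8 fell and 1 rose. CCNA2, the cyclin of S phase and G2, fell by 2.85 on the log2 scale (adjusted p = 0.0110), and the gene that rose was CDKN1A, the CDK inhibitor p21, at 3.33 (SE 0.39, adjusted p = 0.0110). CDKN1A had 75.7 FPKM in wild type 1, 11.0 and 19.1 in R213A 1 and 3, and 6.64 in control 1. It had 42.4 and 46.4 FPKM in wild type 2 and 3, 45.2 in R213A 2, and 48.4 and 38.3 in control 2 and 3. For CDKN1A wild type 1 was the highest and control 1 the lowest of the 9 libraries. None of the genes of these lists passed within the 5-library table or over all 9 libraries.

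Genes of G2 and mitosis were lower in wild type 1 too. Of 18 G2/M genes 14 fell, with a median of -2.06, and MKI67, the proliferation marker, was at -2.68 (SE 0.31, adjusted p = 0.0110). Their FPKM summed to 348 in wild type 1, 1344 and 1075 in R213A 1 and 3, and 1179 in control 1. Other groups of genes moved with wild type 1 as well. Targets of ATF4, the transcription factor of the amino acid and stress response, summed over 11 genes to 973 FPKM in wild type 1, 172 and 547 in R213A 1 and 3, and 155 in control 1, and 6 of 10 fitted rose, against 3.3% of all genes. TRIB3, a pseudokinase induced in that response, was at 4.65 (SE 0.56, adjusted p = 0.0110). The same sum in the 5-library table was 603 and 620 FPKM in wild type 2 and 3, 596 in R213A 2, and 529 and 617 in control 2 and 3. The 6 epithelial markers summed to 499 FPKM in wild type 1, 949.5 and 623 in R213A 1 and 3, and 351 in control 1, and the 4 mesenchymal markers to 219 FPKM in wild type 1, 135 and 183 in R213A 1 and 3, and 89.6 in control 1. Of 13 mitochondrial transcripts 2 fell, with a median of -0.80. The read total of wild type 1 was 18203911 and its mitochondrial share 2.19%, both within the range of the other libraries. The part of these other changes in the fall of the replication genes was not tested.

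The share of reads that went to the 43 genes needs no length scale, and wild type 1 and control 2 had the lowest shares of their tables. It was 0.226% in wild type 1, 0.540% and 0.518% in R213A 1 and 3, and 0.617% in control 1. The other table gave 0.308% and 0.315% in wild type 2 and 3, 0.306% in R213A 2, and 0.234% and 0.307% in control 2 and 3. R213A 1 was below control 1 in this share, but above it in summed FPKM, at 1792 against 1512. Summed FPKM also depend on gene length and on the scaling of each library. Within their tables wild type 1 was the lowest for 41 of the 43 genes (28.6% of all genes) and control 2 for 29 (37.1%). By promoter, the median of wild type 1 minus control 1 was -1.49 for the 17 genes with an E2F word, from -2.81 to -0.58, and -1.42 for the 20 without, from -2.43 to 0.02.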

How the data were processed

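Per the labels' protocols, RNA came from a Trizol extraction and libraries were made with an Illumina TruSeq stranded mRNA kit. Build hg38 and bcl2fastq appear in the submitters' processing notes, while aligner, counter and strand setting are not stated in these sources. Genes with an overlapping or near-identical partner are therefore uncertain. The authors deposited FPKM per gene in 2 tables, not counts. FPKM times gene length gave whole reads for 100% of values within 0.01 reads. The scaling in the FPKM values was 0.850 to 1.09 times what those reads give. The lowest value was that of R213A 1 and the highest that of control 1, both in the 4-library table. A lower value gives more FPKM for the same share of reads. Levels in FPKM, and the order of these libraries by them, therefore carry this scaling.

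Levels were compared on log2(FPKM + 1) with limma 3.58.1 (R 4.3.3) and a mean-variance trend, for 11193 genes (mean of 1 FPKM or more), all 43 members among them. The added 1 makes the differences of low genes too small. One fit had group and table as terms (5 residual degrees of freedom). Another had a mean for each group in each table (3 residual degrees of freedom), which gave the differences within tables and the difference between tables. P-values were Benjamini-Hochberg adjusted over all 11193 genes, with a threshold of 0.05. The fits were tested on simulated data. Figures and descriptions used Python 3.11.15, pandas 2.3.3 and matplotlib 3.10.9.

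The members and lists were chosen with earlier results of these data known. Any member could be named. Values in every library are given for a fixed set of central genes and for those with the largest difference in their role, and for other lists at most 4 genes by smallest p. Alternatives were the pseudocount, the filter on low values, the scaling, the spread model, limma-voom on recovered reads, a replicate block, and each library left out. Leaving out wild type 1 together with control 2 was added after seeing the data. Same-numbered libraries of wild type and control share a table, and their deviations from the group means correlated at 0.60, 0.33 and 0.57. After the table term these were -0.76, -0.47 and -0.13. Taking out group and table means from so few libraries pushes such values below 0, so they cannot decide on pairing. The labels do not say that the numbers pair libraries, so the numbers were not taken as pairs.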

Additional observations from a re-analysis of the deposited data

Results flagged for a closer look

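For 6 genes the difference of wild type from control was not the same in the 2 tables, by limma's test of the difference between the differences (adjusted p from 0.0402 to 0.0488, over all 11193 genes). On the log2 scale, 4-library table minus 5-library table, the values were -3.31 for UHRF1, -2.70 for MCM10, -2.62 for RRM2, -2.49 for MCM2, -2.40 for MCM4 and -1.97 for POLE2. Each was lower in wild type 1 than in control 1, and higher in the mean of wild type 2 and 3 than in that of control 2 and 3. Control 2 was the lowest library of its table for each of them. MCM2 had 25.2 FPKM in wild type 2 and 26.7 in control 3, so not every wild type library was above every control. The tables hold different libraries, and which of the library, the culture or the table goes with this cannot be told apart. Without control 2 none of the 43 genes passed this test, and neither did any of the 11193 genes, while the median of the 43 was -1.40, against -1.52 with it.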

How the results depend on the processing

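No member passed over all 9 libraries or within the 5-library table under any alternative run. The median difference over all 9 libraries ran, with 1 library left out, from -0.56 to 0.079 for wild type minus control and from -0.78 to 0.10 for wild type minus R213A, which was 0.091 without wild type 1 and control 2. For R213A minus control it ran from -0.036 (without control 2) to 0.50 (without control 1). In the same fits RRM2 ran from -0.98 to 0.11, MCM2 from -0.96 to 0.037 and UHRF1 from -1.13 to 0.24 for wild type minus control, above 0 without wild type 1 and, for UHRF1, without control 1. A replicate block with the table term left the medians at -0.39 for wild type minus control, 0.19 for R213A minus control and -0.58 for wild type minus R213A, with 0 calls in each, and it changed no call.

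Within the 4-library table, the count for wild type minus control was 16 to 29 over all alternatives (3.97% to 16.3% of all genes), and its median -1.52, -1.50, -1.30 and -1.57 with a pseudocount of 0.1 or 0.5, quantile normalization and limma-voom. For wild type minus R213A the count was 16 with a mean of at least 5 FPKM (2.18% of all genes), 4 with limma-voom (0.876%) and 0 to 28 with 1 library left out (up to 8.95%), and the median -1.05 with quantile normalization and -1.16 with limma-voom. For R213A minus control the count was 0 to 12 with 1 library left out (up to 28.4% of all genes), and the median -0.34 and -0.44 with quantile normalization and limma-voom.

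Within the 5-library table the median of wild type minus control was 0.24 with limma-voom, 0.0105 without wild type 1 and control 2, and 0.0105 to 0.19 with 1 library left out. That of R213A minus control was 0.24, -0.0123, and -0.0123 to 0.21 in the same order. Between the tables, the count for wild type minus control was 10 with no filter (5.45% of all genes), 12 with a filter at a mean of 5 FPKM (177 genes of 6800), 12 with quantile normalization (2.65%) and 0 to 16 with 1 library left out (up to 3.26%), and its median -1.62 (pseudocount 0.1), -1.41 (quantile), -1.77 (limma-voom) and -1.63 to -1.40 (1 library left out). For R213A minus control the median was -0.73 with limma-voom, -0.24 without wild type 1 and control 2, and -0.41 to -0.24 with 1 library left out. For wild type minus R213A it was -1.41 (pseudocount 0.1), -1.05 (quantile), -1.21 (limma-voom) and -1.36 to -1.22 (1 library left out), with 8 members past the threshold with no filter (4.16% of all genes).

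The causes of these shifts were not tested. Leaving out wild type 1 or control 1 leaves no difference of wild type from control within the 4-library table. With 1 library a group there, its tests borrow all of the spread of those groups from other libraries.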
